A study of Mus musculus with 4 samples.

Results

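A set of 8 genes that other work ties to Wt1 in kidney and in tumours was followed in embryonic mouse brain with and without a Wt1 conditional knockout. The genes were Podxl, Sall1, Wnt4, Pax2, Pdgfa, Egfr, Myc and Bcl2. They were chosen by name, as rows whose gene name is 1 of these 8 in both deposited tables, and all 8 were found there among 22414 genes listed in either table and 19500 in both. The knockout brains were labelled Wt1CKO (Wt1_CKO below) and the comparison brains carried floxed Wt1 alleles and were labelled wild type, Wt1fl/fl (Wt1_flfl below). All were brain at embryonic day 13 on a C57BL/6 background, with 2 libraries per genotype, numbered 1 and 2. The labels used here name no Cre driver and no brain region, and do not say whether a library came from 1 embryo or a pool, so the tests see only how far these libraries differ, which may be technical.

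Wt1 encodes a zinc finger transcription factor that can raise or lower transcription of a gene depending on the cell. In the kidney it is needed for the nephron progenitor mesenchyme and later for podocytes, the filter cells of the glomerulus. Podxl (podocalyxin, a charged surface sialomucin of podocytes), Sall1 (a zinc finger factor of nephron progenitors) and Wnt4 (the Wnt ligand that drives tubule formation) are known there as genes that Wt1 activates, and Pax2 (a paired box factor of early nephrons) as one that it represses. In work on tumours and in reporter assays, the growth factor gene Pdgfa, the growth factor receptor gene Egfr, the proto-oncogene Myc and the survival gene Bcl2 were described as repressed by Wt1, with reports of the opposite for some of them. The study asked how Wt1 acts on neural progenitors. The values of these genes, described elsewhere as targets, are given here for this tissue, with 2 libraries per genotype.

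The Wt1 protein is known to bind G-rich Egr-type sites, and runs of TCC repeats were described as Wt1-responsive in reporter work. The 250 bases before each RefSeq transcription start (GRCm38.p6) were searched on both strands for GCGNGGGCG, for GCGTGGGAG and for TCCTCCTCC. Of the 8 genes, 6 had such a window, with 11 windows in all. None of the 11 held GCGNGGGCG, found in 4.70% of all 32851 windows, or GCGTGGGAG, found in 0.405%. The TCC repeat was in 1 window of Pdgfa and 1 of Egfr, against 2.45% of all windows. In Pdgfa it was 3 overlapping copies, so that 15 bases matched, and in Egfr 1 copy. Both windows are shown 5′ to 3′ on the strand of the gene, with the matched repeat in capitals, since Pdgfa is the member with the smallest p-value below and Egfr the only other member with a match. A match of letters says nothing about binding. The 11 windows held 52.8% to 85.2% G and C, against a median of 52.4% over all windows. The shares were not matched for this, and 11 windows of 6 genes are too few to call a motif frequent or absent. The window of Pdgfa is chr5:138994945-138995194 on the minus strand, with 72.4% G and C, and that of Egfr is chr11:16751953-16752202 on the plus strand, with 60.8%.
Pdgfa: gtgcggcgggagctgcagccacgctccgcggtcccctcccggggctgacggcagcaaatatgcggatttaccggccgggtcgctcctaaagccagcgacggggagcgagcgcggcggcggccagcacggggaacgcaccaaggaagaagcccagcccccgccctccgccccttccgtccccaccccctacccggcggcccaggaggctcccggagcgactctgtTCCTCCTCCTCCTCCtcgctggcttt
Egfr: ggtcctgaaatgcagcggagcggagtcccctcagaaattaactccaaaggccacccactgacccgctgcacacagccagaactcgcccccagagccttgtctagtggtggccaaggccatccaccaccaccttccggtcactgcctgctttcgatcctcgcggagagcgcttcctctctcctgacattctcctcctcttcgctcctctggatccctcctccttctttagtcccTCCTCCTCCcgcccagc

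The libraries held 16219310 to 17704698 listed counts. Neural progenitor markers (8 genes, Sox2 and Nes among them) summed to 2907 and 3253 CPM (counts scaled to a library of 1000000) in Wt1_CKO and 2805 and 3049 CPM in Wt1_flfl, and young neuron markers (7 genes) to 6273 and 5407 CPM against 6351 and 5708 CPM. The 5 kidney and podocyte genes summed to 7.40 and 6.12 CPM in Wt1_CKO and 5.98 and 8.74 CPM in Wt1_flfl, with Synpo the highest by its mean over the 4 libraries. Other lists varied more between libraries. Choroid plexus markers (4 genes with a value) summed to 44.5 and 2.04 CPM in Wt1_CKO and 0.555 and 16.9 CPM in Wt1_flfl, with Ttr the highest by its mean. Markers of meninges and mesenchyme (8 genes) summed to 34.0 and 32.9 CPM in Wt1_CKO and 33.4 and 64.9 CPM in Wt1_flfl, and eye markers (5 genes with a value) to 16.6 and 6.82 CPM against 15.1 and 11 CPM. Only 2 genes each of the kidney, choroid plexus and eye lists and 7 of meninges and mesenchyme had enough counts to test. None of the markers tested passed after adjustment (Col1a1, at 94 and 81 counts against 143 and 219, had an unadjusted edgeR p of 0.00407). The part of unequal tissue content in the values below was not tested. Wt1_flfl replicate 1 stood apart in ribosomal RNA, with 4582 CPM, against 184 to 451 CPM in the others. Wt1_CKO replicate 1 had 0.226 CPM of the female-specific RNA Xist, against 807 to 960 CPM in the other 3. Wt1 itself was not analysed here, and the labelled genotypes could not be compared with its level. In bulk tissue, fewer cells of a type and less RNA per cell cannot be told apart.

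The 8 genes covered a wide range of levels. In counts per kilobase of exon, scaled like CPM, averaged over the 4 libraries, Sall1 was at 24, Podxl at 12.8, Myc at 10.4, Pdgfa at 2.81, Bcl2 at 2.35, Wnt4 at 0.281, Egfr at 0.147 and Pax2 at 0.0545. The lowest library of Sall1, at 20.3 on this scale, lay above the highest of Podxl, at 15.2. Podxl and Myc overlapped, as did Pdgfa and Bcl2, and the order within these neighbours changed between libraries. The ranges of Wnt4 and Egfr, and of Egfr and Pax2, also overlapped. Within each library Wnt4 was above Egfr and Egfr above Pax2, from few counts. The closest were 0.176 against 0.169 in Wt1_flfl replicate 1 and 0.0669 against 0.0539 in Wt1_CKO replicate 2. The level of Sall1 was above that of 85.1% of the genes tested, and that of Podxl above 72.2%. Egfr was above 1.96% of them. Pax2 was above 0.0817%, but it had too few counts to be among the genes tested, so the low-count filter largely sets this place.

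**Figure D1:**
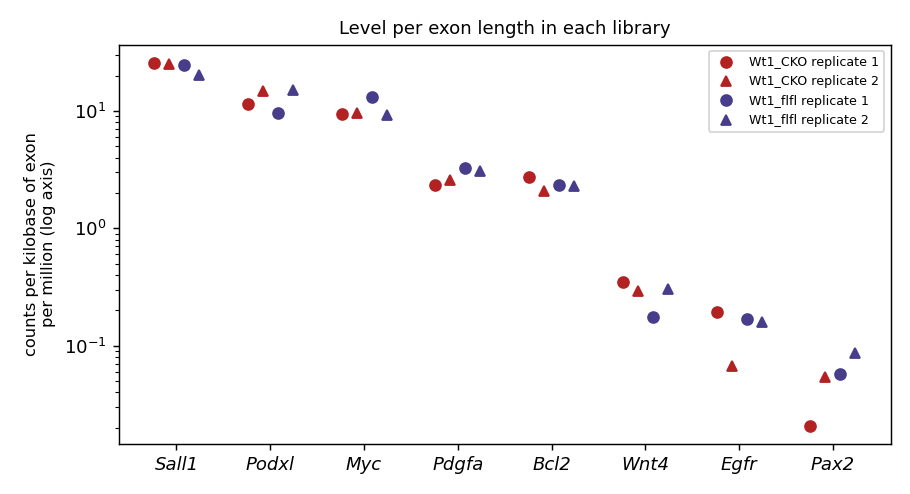
Counts per kilobase of exon, scaled like CPM (log axis), for each of the 8 genes in each library, with Wt1_CKO in red and Wt1_flfl in dark blue and circles for replicate 1 and triangles for replicate 2. Sall1, Podxl and Myc lie near or above 10, and Pax2 lies below 0.1 in every library.

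None of the 8 genes passed the test between Wt1_CKO and Wt1_flfl brain. Pax2 had too few counts to test, and the other 7 each had an adjusted p of 1 by edgeR's quasi-likelihood test, with p-values adjusted over 15933 genes. No member had an unadjusted p under 0.05 in that test, where 1.56% of all genes did. Over all genes tested, 1 passed an adjusted p of 0.05, which is 0.00628%, and against that share a count of 0 among 7 is no result about these genes. DESeq2 and limma-voom also called 0 of the 7. Of the 7 genes, 4 had a positive and 3 a negative log2 fold change (Wt1_CKO over Wt1_flfl), with a median of 0.05, against 0.01 over all genes tested. The median absolute log2 fold change was 0.25 in the 7 genes and 0.12 over all genes. The 7 genes also differed more between replicates of 1 genotype. There the median absolute log2 CPM difference was 0.24 in Wt1_CKO and 0.29 in Wt1_flfl, against 0.20 in each over all genes. For 1 of the 7, Pdgfa, the difference between the genotype means on the log2 CPM scale exceeded the difference between the replicates of either genotype, and it did so for 16.8% of all genes tested.

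**Figure D2:**
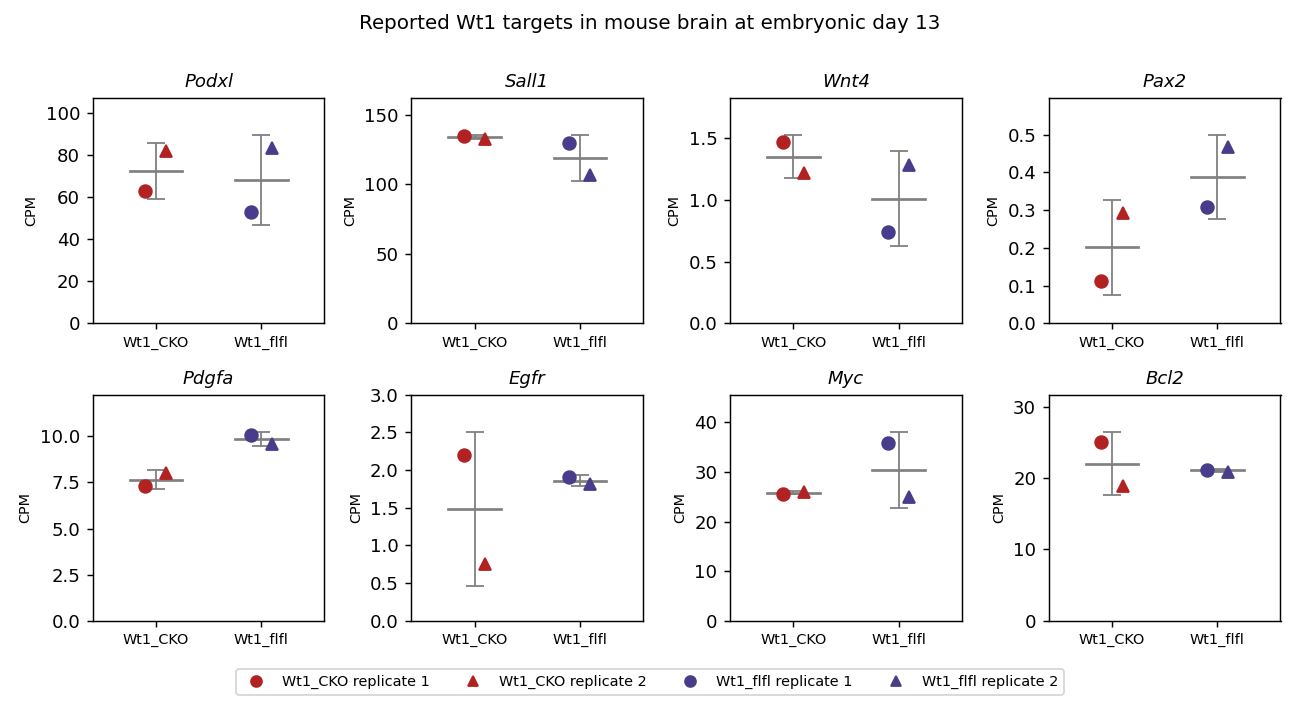
CPM of each gene in each library, with Wt1_CKO left of Wt1_flfl. The horizontal line is the mean and the bar the SD (n = 2 per genotype). The genotypes do not overlap for Sall1 (Wt1_CKO above, as for 15.6% of all genes tested) and Pdgfa (Wt1_CKO below, as for 11.8%). Pax2, not tested, rests on 2 to 8 counts per library. Wt1_CKO replicate 2 and Wt1_flfl replicate 1 had 5 counts each of Pax2, so their CPM differ only through the library totals.

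Sall1 was the highest of the kidney factors. This gene (ENSMUSG00000031665, GRCm38 chromosome 8, 89027235 to 89044162, minus strand), which neural progenitors of the embryonic cortex also express, had 135 and 133 CPM in Wt1_CKO replicates 1 and 2, against 130 and 107 CPM in Wt1_flfl replicates 1 and 2. Both Wt1_CKO libraries were above both Wt1_flfl libraries, an arrangement seen in 15.6% of the genes tested, and Wt1_flfl replicate 2 was well below the other 3 libraries. The means were 134 ± 1.29 CPM in Wt1_CKO and 119 ± 16.4 CPM in Wt1_flfl (SD, n = 2 each). The log2 fold change was 0.16 (SE 0.147), with an unadjusted edgeR p of 0.251. The limma-voom 95% interval ran from -0.14 to 0.48, that is from 0.910 to 1.40 as a fold. Without Wt1_flfl replicate 2 the log2 fold change was 0.02, and without Wt1_flfl replicate 1 it was 0.32.

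Podxl (ENSMUSG00000025608, chromosome 6, 31519488 to 31563981, minus strand) is also made by endothelial cells and neuroepithelium. It had 62.9 and 81.8 CPM in Wt1_CKO replicates 1 and 2, against 53.1 and 83.3 CPM in Wt1_flfl replicates 1 and 2. The genotypes overlapped, and both libraries numbered 2 were higher than both numbered 1. On the log2 CPM scale replicate 2 exceeded replicate 1 by 0.38 in Wt1_CKO and by 0.64 in Wt1_flfl, while the genotype means differed by 0.09. The edgeR log2 fold change was 0.07 (unadjusted p 0.769), with a limma-voom 95% interval from -0.46 to 0.64. Leaving out Wt1_CKO replicate 2 gave -0.13, and leaving out Wt1_flfl replicate 1 gave -0.21. Leaving out the other library of each genotype gave 0.25 (Wt1_CKO replicate 1) and 0.42 (Wt1_flfl replicate 2). The 8 endothelial markers summed to 128 and 136 CPM in Wt1_CKO and 136 and 149 CPM in Wt1_flfl, and the part of endothelial cells in the Podxl values was not tested.

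Wnt4 (ENSMUSG00000036856, chromosome 4, 137277489 to 137299726, plus strand) was low. Its counts were 26 and 21 in Wt1_CKO and 12 and 22 in Wt1_flfl, which is 1.47 and 1.22 CPM against 0.740 and 1.28 CPM. The genotypes overlapped, and Wt1_flfl replicate 1 was the low library. The log2 fold change of 0.39 (SE 0.369, unadjusted edgeR p 0.424) had a limma-voom 95% interval from -0.65 to 1.5, so neither a fold of 0.635 nor one of 2.84 lay outside it. It was 0.06 without Wt1_flfl replicate 1, 0.26 without Wt1_CKO replicate 1, 0.52 without Wt1_CKO replicate 2 and 0.84 without Wt1_flfl replicate 2.

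Pax2 (ENSMUSG00000004231, chromosome 19, 44756045 to 44837871, plus strand), which in the brain marks the boundary of midbrain and hindbrain, was hardly detected. It had 2 and 5 counts in Wt1_CKO and 5 and 8 counts in Wt1_flfl. Of 8 midbrain and hindbrain markers, En2, Pax5 and Fgf8 had values, summing to 0.960 and 0.816 CPM in Wt1_CKO and 0.432 and 1.92 CPM in Wt1_flfl, and the other 5 were not analysed here. The ratio of Wt1_CKO to Wt1_flfl was 0.366 between the libraries numbered 1, with an exact 95% counting interval from 0.0349 to 2.24. It was 0.625, with an interval from 0.161 to 2.17, between those numbered 2. Both intervals include 1. Fitted with no low-count filter, Pax2 had a log2 fold change of -0.94 (unadjusted edgeR p 0.223, adjusted p 1).

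Pdgfa and Egfr belong to growth factor signalling. Pdgfa (ENSMUSG00000025856, chromosome 5, 138976014 to 138997370, minus strand) encodes the A chain of platelet-derived growth factor, a ligand of the receptor PDGFRα. Its CPM were 7.29 and 8.04 in Wt1_CKO replicates 1 and 2, against 10.1 and 9.61 in Wt1_flfl replicates 1 and 2, from 129 and 138 counts against 164 and 165. Both Wt1_CKO libraries were below both Wt1_flfl libraries, as were those of 11.8% of the genes tested. The means were 7.66 ± 0.535 CPM in Wt1_CKO and 9.86 ± 0.355 CPM in Wt1_flfl (SD, n = 2 each). The log2 fold change was -0.38 and its unadjusted edgeR p of 0.109 was the smallest of the 7 genes, yet 824th of the 15933 in order. Its SE of 0.0820 uses only the SDs of log2 CPM with n = 2 each and is imprecise. The limma-voom 95% interval ran from -0.86 to 0.10, a fold of 0.550 to 1.08. With each library left out in turn the log2 fold change stayed between -0.45 and -0.31 and did not pass. Exons of the antisense gene 6330403L08Rik cover 813 of the 3119 exon bases of Pdgfa, and it is not stated whether strand was kept. That gene had 54 and 50 counts in Wt1_CKO and 35 and 64 in Wt1_flfl. The part of the overlap in the Pdgfa counts was not tested.

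Among the 10135 genes that averaged 10 CPM or more, Poli and Serf1 had the profiles most like that of Pdgfa over the 4 libraries. The measure was the Euclidean distance between log2 CPM profiles centred on their means, and it was 0.0290 for Poli and 0.0395 for Serf1. A flat profile lay at 0.393 from Pdgfa, and 14 genes lay within 0.1. Poli, a translesion DNA polymerase gene, had 10.6 and 11.9 CPM in Wt1_CKO and 14.8 and 13.9 CPM in Wt1_flfl. With only 4 libraries the likeness is a description.

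Egfr (ENSMUSG00000020122, chromosome 11, 16752203 to 16918158, plus strand), the epidermal growth factor receptor gene, had 39 and 13 counts in Wt1_CKO replicates 1 and 2, against 31 and 31 in Wt1_flfl. This is 2.2 and 0.758 CPM against 1.91 and 1.81 CPM. The Wt1_CKO libraries lay on either side of the Wt1_flfl libraries, and Wt1_CKO replicate 2 was the low one. The log2 fold change of -0.34 (SE 0.704, unadjusted edgeR p 0.549) was 0.23 without Wt1_CKO replicate 2 and -1.30 without Wt1_CKO replicate 1. Its limma-voom 95% interval, from -1.79 to 0.76, was the widest of the 7.

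Myc and Bcl2 act in growth and survival. Myc (ENSMUSG00000022346, chromosome 15, 61985391 to 61990374, plus strand), a bHLH factor of cell growth, had 25.6 and 26.0 CPM in Wt1_CKO replicates 1 and 2, against 35.8 and 25 CPM in Wt1_flfl replicates 1 and 2. Wt1_flfl replicate 1, also the library with the most ribosomal RNA, was higher than the other 3, which lay within 25 to 26.0 CPM. The means were 25.8 ± 0.288 CPM in Wt1_CKO and 30.4 ± 7.58 CPM in Wt1_flfl (SD, n = 2 each). The log2 fold change was -0.25 (unadjusted edgeR p 0.244), with a limma-voom 95% interval from -0.69 to 0.25. It was 0.04 without Wt1_flfl replicate 1 and -0.49 without Wt1_flfl replicate 2.

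Bcl2 (ENSMUSG00000057329, chromosome 1, 106538178 to 106714274, minus strand), which blocks apoptosis at the mitochondrion, had 25.1 and 18.9 CPM in Wt1_CKO replicates 1 and 2, against 21.2 and 20.9 CPM in Wt1_flfl. The Wt1_CKO libraries again lay on either side of the Wt1_flfl libraries. The log2 fold change was 0.05 (unadjusted edgeR p 0.803), with a limma-voom 95% interval from -0.41 to 0.48, a fold of 0.755 to 1.39. It was -0.17 without Wt1_CKO replicate 1 and 0.24 without Wt1_CKO replicate 2. The antisense gene D630008O14Rik, not analysed here, covers 558 of its 9157 exon bases.

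Each Wt1_CKO library was also set against the Wt1_flfl library of the same number. The ratio of Wt1_CKO to Wt1_flfl CPM was set beside its exact 95% interval for counting error only. Between the libraries numbered 1, the interval lay above 1 for Podxl (1.18, from 1.08 to 1.30) and Bcl2 (1.19, from 1.03 to 1.37), and 16.4% of 21047 listed genes did the same. It lay below 1 for Myc (0.717, from 0.633 to 0.812) and Pdgfa (0.721, from 0.568 to 0.913), as for 12.0% of genes. Between the libraries numbered 2, it lay above 1 for Sall1 (1.25, from 1.17 to 1.33), with 14.0% of 20867 genes, and below 1 for Egfr (0.420, from 0.202 to 0.825), with 12.1%. No member was outside counting error in both, and Podxl, Bcl2 and Myc, each outside it between the libraries numbered 1, had a ratio on the other side of 1 between those numbered 2. These intervals compare libraries, not genotypes.

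**Figure D3:**
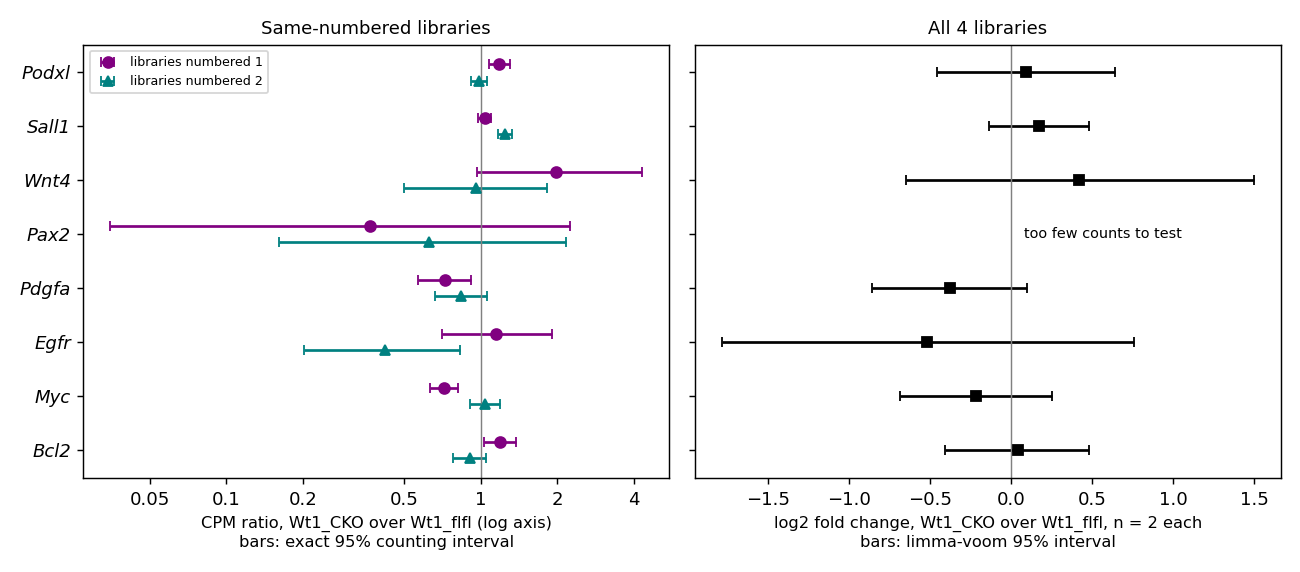
Left, CPM ratio of Wt1_CKO over Wt1_flfl between libraries numbered 1 (circles) and numbered 2 (triangles), with exact 95% counting intervals on a log axis. Right, log2 fold change over all 4 libraries with limma-voom 95% intervals (n = 2 per genotype). All 7 intervals on the right include 0, from the narrowest for Sall1 (-0.14 to 0.48) to the widest for Egfr (-1.79 to 0.76).

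The authors' deposited tables carry their own p-values for the same ratios. The authors' deposited table for the libraries numbered 2 marked 1 of the 8 genes as significant, Egfr, at -1.25 on the log2 scale (adjusted p 0.0268), where 1.93% of all genes were marked lower and 1.27% higher. The authors' deposited table for the libraries numbered 1 marked none of the 8, where 1.67% of genes were marked higher and 1.53% lower, and gave Egfr a log2 fold change of 0.20. The mark needed a change of 1 or more in either direction on the log2 scale, beside an adjusted p under 0.05. In the first authors' deposited table Myc (log2 fold change -0.48, adjusted p 1.42e-06), Podxl (0.24, adjusted p 0.00115) and Pdgfa (-0.47, adjusted p 0.0193) were therefore left unmarked, as was Sall1 in the second (0.32, adjusted p 4.67e-11). The same authors' deposited tables gave an adjusted p of 0.540 for Myc, 0.575 for Podxl and 0.229 for Pdgfa in the second, and 0.280 for Sall1 in the first.

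A further 32 genes that other work reports as Wt1 targets in kidney, gonad or tumours were set beside the 8. Of these, 23 were tested, 4 had too few counts, 2 were in 1 table only and 3 were not analysed here. None passed after adjustment by edgeR, with 8 positive and 15 negative log2 fold changes and a median of -0.09, against 0.01 over all genes. Both Wt1_CKO libraries were below both Wt1_flfl libraries for 4 of the 23 and above for 0, against 11.8% and 15.6% of all genes tested. Nr0b1 is among both the 4 and the 15, and it passed the low-count filter only through its Wt1_flfl counts. Its direction was thus fixed in advance, and the counts of genes in each direction are given as a description. The untested genes with counts went both ways. Amhr2, the receptor gene of anti-Müllerian hormone, had 2 and 11 counts in Wt1_CKO and 4 and 4 in Wt1_flfl. The nephron progenitor gene Six2 had 9 and 13 against 5 and 10, and Scel had 6 and 4 against 2 and 4. In the libraries numbered 2, the only ones with a value, the nephrin gene Nphs1 had 0 counts in Wt1_CKO against 10 in Wt1_flfl, and the vitamin D receptor gene Vdr had 6 against 5.

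Of the 23, Nr0b1 had the smallest p-value. Nr0b1 (DAX1), an X-linked nuclear receptor gene of the adrenal, gonad, pituitary and ventromedial hypothalamus, had 0 and 1 counts in Wt1_CKO replicates 1 and 2, against 11 and 13 counts in Wt1_flfl replicates 1 and 2. It passed the low-count filter only through its Wt1_flfl counts, so it had to differ, and its unadjusted edgeR p of 0.00375 (adjusted p 1) is given as a description. With no low-count filter the unadjusted p was 0.00219 and the adjusted p again 1, and with either Wt1_flfl library left out the gene was not tested. Its partner Nr5a1 (SF-1), a nuclear receptor gene of the same tissues, had 2 and 0 counts in Wt1_CKO and 1 and 150 counts in Wt1_flfl, so that all but a few of its counts came from Wt1_flfl replicate 2. Nr0b1 was at 11 counts in Wt1_flfl replicate 1, where Nr5a1 had 1. Some other regional genes, picked from the marker lists of meninges and eye, were also high in Wt1_flfl replicate 2. Foxd1 had 10 and 22 counts in Wt1_CKO and 9 and 97 in Wt1_flfl. Six6, a gene of eye and hypothalamus with a value in the libraries numbered 2 alone, had 1 count in Wt1_CKO and 131 in Wt1_flfl, and Rax, of the same regions, had 0 and 23. Other genes of those lists had their highest CPM elsewhere, Dcn and Lum among them. Dct had 262 and 94 counts in Wt1_CKO and 220 and 14 in Wt1_flfl. Mitf had 28 and 22 against 22 and 21, and Twist1 had 2 and 21 against 3 and 7. The part of hypothalamic or pituitary tissue in the counts of Nr0b1, Nr5a1 and Spry1 was not tested.

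The next by p-value also did not pass. Spry1, an inhibitor of receptor tyrosine kinase signalling, had 8.47 and 10.8 CPM in Wt1_CKO and 8.82 and 21.4 CPM in Wt1_flfl, with a log2 fold change of -0.66 that was 0.11 without Wt1_flfl replicate 2 and -1.16 without Wt1_flfl replicate 1. Gas1, a Hedgehog co-receptor gene, had 92.2 and 74.7 CPM in Wt1_CKO and 79.8 and 54.0 CPM in Wt1_flfl (log2 fold change 0.30, unadjusted edgeR p 0.184), and 0.04 without Wt1_flfl replicate 2 and 0.62 without Wt1_flfl replicate 1. Cdh1, the gene of the epithelial adhesion protein E-cadherin, was at 5 and 10 counts in Wt1_CKO, against 10 and 15 in Wt1_flfl (log2 fold change -0.80, unadjusted edgeR p 0.234), and -0.37 without Wt1_CKO replicate 1 and -1.39 without Wt1_CKO replicate 2. Of the genes at higher levels, Odc1, for the polyamine enzyme ornithine decarboxylase, had 366 and 331 CPM in Wt1_CKO and 354 and 250 CPM in Wt1_flfl, and its limma-voom 95% interval ran from -0.21 to 0.63. Igf1r, the insulin-like growth factor receptor gene, had 141 and 146 CPM in Wt1_CKO and 136 and 150 CPM in Wt1_flfl, and an interval from -0.26 to 0.25. Bcl2l1, for the survival protein Bcl-x and closest of these to Bcl2, had 156 and 150 CPM in Wt1_CKO and 162 and 164 CPM in Wt1_flfl, with an interval from -0.35 to 0.13. Odc1, Igf1r and Bcl2l1, like the untested genes above, were chosen after their values were seen. So were the single genes named above from the marker lists of meninges and eye.

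**Figure D4:**
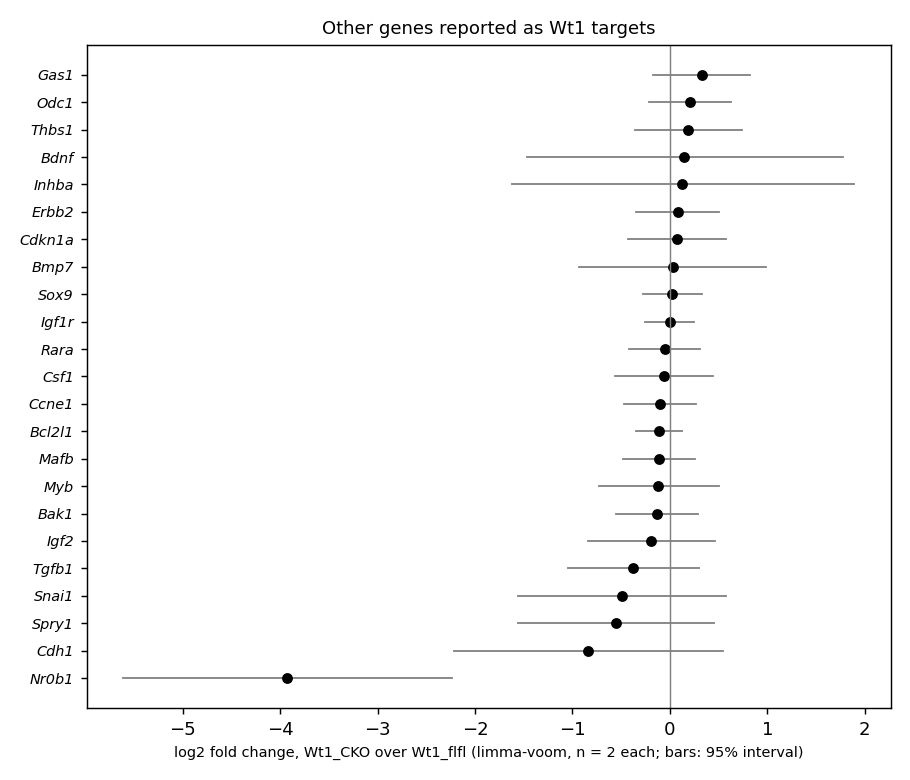
Limma-voom log2 fold change of Wt1_CKO over Wt1_flfl for the 23 other reported targets that were tested, with 95% intervals (n = 2 per genotype), ordered by value. Apart from Nr0b1, every interval includes 0. That of Nr0b1, from -5.61 to -2.24, rests on 1 and 24 summed counts in a gene that entered the test through its Wt1_flfl counts alone.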

How the data were processed

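Poly(A) RNA of mouse brain at embryonic day 13 was selected on oligo(dT) and copied with random primers, per the labels' protocols. HTSeq 0.6.0, TopHat2 2.0.12 and Bowtie2 2.2.3 are named in the submitters' processing notes, as is build mm9. Positions in the tables match GENCODE vM21 (GRCm38) for 92.1% of the genes found there, so they are given on GRCm38. Per the file headers the authors deposited whole-number counts per gene, 1 table per same-numbered pair of libraries. The deposited CPM are counts over a library total within 0.0225% of the listed sum, with a count of 0 entered as 0.5. The authors' ratio (fold) and log2 columns follow from these CPM, and the authors' p-value and adjusted p-value columns set 1 library against 1 other, and the sources used here give no name for that test. The Wt1 transcript, and a few genes that the lists and rules below would have taken in, are not reported here.

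For genes in both tables, edgeR 4.0.16 (R 4.3.3) tested the counts with a quasi-likelihood model of genotype alone, TMM scaling, filterByExpr with a minimum count of 10 and Benjamini-Hochberg adjustment at 0.05. The script was tested on simulated data. Printed CPM use listed library totals, and TMM factors were 0.991 to 1.01. SEs use the SDs of log2 CPM (prior count 2), and with n = 2 are imprecise. The 95% intervals of log2 fold changes are from limma 3.58.1 (voom). Counting intervals and floors cover counting error only, since PCR copies of a molecule were not told apart. Levels per length used all exon bases of GENCODE vM21. Sequences are from RefSeq (GRCm38.p6). Named genes are the 8 members, other reported targets with an unadjusted p under 0.05, the 4 of these with the smallest p, and the genes most like the member with the smallest p. Members and lists were chosen with earlier results of these data known. Alternatives were a replicate block, each library left out, DESeq2 size factors, unscaled totals, other filters, genes of either table, DESeq2 1.42.0 and limma-voom. Leaving out ribosomal RNA, mitochondrial, haemoglobin and sex-linked genes was added after the data were seen.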

Additional observations from a re-analysis of the deposited data

How the results depend on the processing

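No alternative called any of the 8 genes. The log2 fold changes of Sall1, Wnt4 and Pdgfa kept their direction throughout. With 1 library left out, that of Podxl ran from -0.21 to 0.42, Egfr from -1.30 to 0.23, Myc from -0.49 to 0.04, Bcl2 from -0.17 to 0.24 and, among the other targets, Spry1 from -1.16 to 0.11. Podxl and Myc reached an unadjusted edgeR p under 0.05 only without Wt1_flfl replicate 2, with 0.0352 and 0.0300, and an adjusted p of 1 each. Such fits leave 1 library in a genotype, which is assumed to vary like the other genotype's 2. Pax2 could be fitted only with no low-count filter, at -0.94 (unadjusted edgeR p 0.223). Over all genes the count past an adjusted p of 0.05 was 1, and 5 with DESeq2, 42 with a replicate block and 3 to 73 with 1 library left out (73 without Wt1_flfl replicate 1). Of the other reported targets 0 passed in any fit of all 4 libraries. With the replicate block the unadjusted edgeR p was 0.0127 for Spry1 (0.144 without the block) and 0.00436 for Gas1 (0.184). For Cdh1 it was 0.231 (0.234). Their adjusted p with the block were 0.488, 0.344 and 0.866, and 1146 of 15933 genes had an unadjusted p under 0.05 there. Without Wt1_flfl replicate 1, Nr5a1 was called, but Wt1_flfl replicate 2, at 150 counts, then stood alone for its genotype. That call rests on the 1 library where the gene is high, and is no result about the genotypes. The cause of these differences between fits was not tested. Same-numbered libraries share a number and a deposited table, and the labels do not say whether they share a litter or batch. Their deviations from the genotype means had a correlation of 0.28 across 15933 genes, with just 2 pairs. The replicate block called 0 of the 8 genes. Scaling by DESeq2 size factors or listed totals changed no direction among them. Wnt4, Egfr and Pax2 had 39 counts or fewer per library, which widens their counting intervals.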
